A study of Mus musculus with 8 samples.

Results

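This account compares induced hepatocyte lines (iHep), which are fibroblasts turned towards a hepatocyte state by transduced transcription factors, with primary hepatocytes isolated from mouse liver. It rests on 6 of the 8 expression arrays of the study, 3 lines and 3 hepatocyte arrays, taken by their labels; the other 2 arrays hold mouse embryonic fibroblasts (MEF). Hnf4a was transduced into every line. In 4a3 it was combined with Foxa3, in 4a3CK with Foxa3, c-Myc and Klf4, and in 4a1CK with Foxa1, Klf4 and c-Myc. The factors were delivered to fibroblasts by replication-defective retroviruses, and the lines were then grown in a hepatocyte medium with dexamethasone, nicotinamide, insulin, transferrin, selenium, FGF4, HGF and EGF on type I collagen. Each line is represented by 1 array, from passage 10. Hepatocytes came from male C57/B6 mice aged 8 to 10 weeks (PH 1, PH 2 and PH 3, the last being the array labelled without a number), and the fibroblasts from C57/B6 embryos at E13.5. The hepatocytes were isolated by collagenase perfusion and also kept in this hepatocyte medium, so they are cultured cells and not fresh liver. The labels give neither a culture time for them nor a strain for the lines. Each gene was read on the probe set (probes near the 3′ end of a transcript) with the highest mean over the 8 arrays among those with 1 gene symbol, which left 17097 genes. Of these, 861 had all 3 lines above all 3 hepatocyte arrays and 3642 had all 3 lines below them.

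The adult hepatocyte makes most plasma proteins, clears ammonia as urea, makes bile acids from cholesterol, and oxidises and conjugates foreign compounds. A set of transcription factors that hold each other's expression, among them HNF4A, the FOXA proteins, C/EBP alpha, HHEX, ONECUT1, PROX1 and the nuclear receptors NR5A2 and FXR, drives these genes. Hepatocytes in the adult liver rarely divide, whereas a cell line kept through passages has to.

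All values are log2 signals normalised by the authors with RMA, so a difference of 1 is a factor of 2, and signals are compared between arrays and never between genes. PH 3 lay above the other hepatocyte arrays over most genes: its median signal was 5.80, against 4.93 in PH 1 and 4.94 in PH 2, and it exceeded the mean of those arrays for 93.2% of genes. The medians of the lines lay between 5.00 and 5.06. PH 1 and PH 2 were close to each other (SD of their differences over genes 0.159, against 0.549 between PH 1 and PH 3), although 23 genes differed between them by at least 1. Sample numbering falls into 2 runs, the first with the lines, PH 3 and MEF 2 and the second with PH 1, PH 2 and MEF 1. Nothing in the labels says that replicate arrays came from separate mice, so the p-values measure the spread between these arrays, which may be technical. The 3 lines differ in the factors they received, and the spread between them holds that difference. The hepatocyte arrays carried the defining markers Alb, Ttr, Apoa1, Hnf4a and Serpina1a at high signal, with all 3 arrays above both fibroblast arrays. Tat and Cyp7a1, a tyrosine-degrading enzyme and the rate-limiting enzyme of bile acid synthesis, were not raised there. Tat read 4.11, 4.07 and 4.65 in PH 1, PH 2 and PH 3 and 3.94 and 3.75 in the fibroblasts, and Cyp7a1 read 4.22, 4.14 and 4.63 and 4.19 and 4.29.

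More genes were called lower than higher in the lines on the deposited scale. Here and below, rose and fell mean higher or lower in the lines than in hepatocytes. The lines were made from fibroblasts, so neither word describes a change from a hepatocyte state. In limma fitted to all 8 arrays, 1219 of 17097 genes (7.13%) passed an adjusted p under 0.05 with a difference of at least 1. Of the genes tested, 254 (1.49%) were higher in the lines and 965 (5.64%) were lower. All 1219 also had every line on the same side of every hepatocyte array, which held for 5.04% of genes above and 21.3% below. Differences of 16-fold or more were found for 16 genes called higher and 75 called lower. The median difference over all genes was -0.09. The balance between higher and lower depended on the scale. After quantile normalization 607 genes (3.55%) were called higher and 736 (4.30%) lower, so higher genes made up 45.2% of calls in place of 20.8%. Of the 254 genes called higher, 250 were also called higher on that scale, and 674 of the 965 lower genes were again called lower. The count fell to 576 without PH 1, to 610 without PH 2, to 604 without line 4a3, and to 588 (81 higher, 507 lower) with PH 1 and PH 2 averaged into 1 sample. Without PH 3 it was 1806, of which 884 were higher. With the 2 numbering runs as a block 108 genes were higher and 1198 lower. Against PH 3 alone, the only hepatocyte array of the lines' own run, 82 were higher and 2350 lower. Whichever array was left out, 498 genes kept their call, 77 of them higher and 421 lower. Beside the groups below, a gene that lost its call when 1 array was left out is named as such. The counts of calls in every list below are to be read beside the shares over all genes, 5.64% lower and 1.49% higher.

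**Figure D1:**
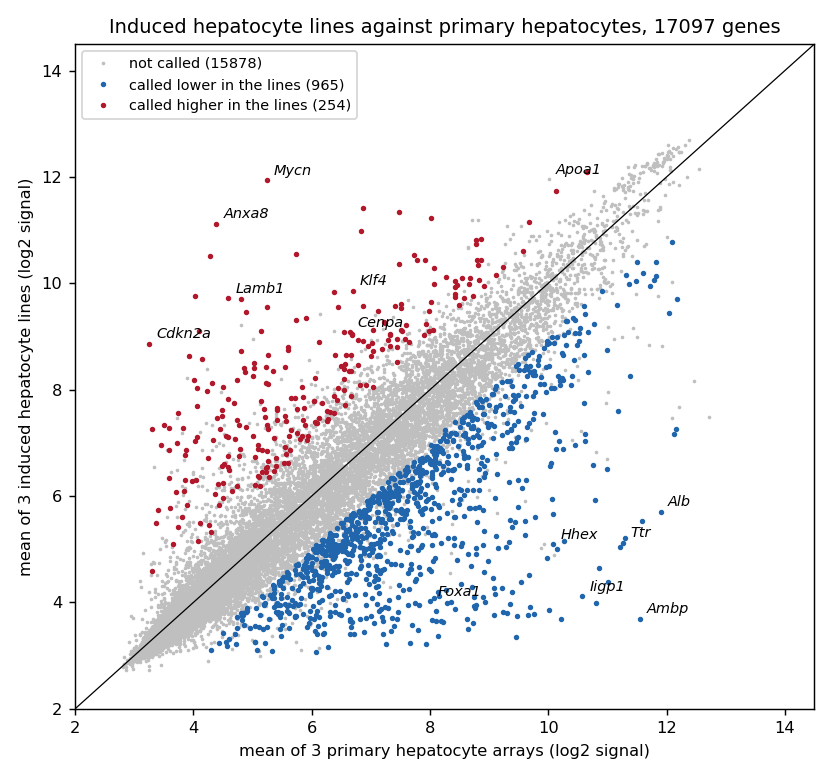
Each point is 1 of 17097 genes, with the mean log2 signal of the 3 primary hepatocyte arrays on the horizontal axis and of the 3 induced lines on the vertical axis; the diagonal marks equal means. The 965 genes called lower in the lines lie below the diagonal, with Ambp and Alb at the far right, and the 254 called higher lie above it, with Mycn and Anxa8 at the top.

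The transduced factors were read first. For Foxa3, signal was 3.94 in 4a3, 3.99 in 4a3CK and 3.92 in 4a1CK, against 6.17, 6.44 and 6.59 in PH 1, PH 2 and PH 3. The difference was -2.45 ± 0.19 (SE, adjusted p = 0.000227), although 4a3 and 4a3CK had received Foxa3, and the lines lay near the fibroblasts (3.71 and 3.62). Foxa1 read 4.19 in 4a3, 3.87 in 4a3CK and 4.01 in 4a1CK and 7.35, 7.18 and 9.47 in the hepatocytes, a difference of -3.98 ± 0.54 (SE, adjusted p = 0.00365); 4a1CK, which received it, lay between the other lines. Hnf4a, given to all 3, read 6.04 in 4a3, 9.59 in 4a3CK and 5.50 in 4a1CK, against 9.54, 9.48 and 9.78. Only 4a3CK reached the hepatocyte range of this gene, the groups overlapped, and the difference did not pass (-2.56 ± 0.90 SE, adjusted p = 0.138). Klf4, a factor shared with induced pluripotency, rose: it read 10.60 in 4a3, 9.43 in 4a3CK and 9.56 in 4a1CK against 6.28, 6.30 and 7.50, a difference of 3.17 ± 0.43 (SE, adjusted p = 0.00365), and its highest signal was in 4a3, the line that did not receive it. For Myc the values were 8.48 in 4a3, 9.38 in 4a3CK and 8.48 in 4a1CK and 9.14, 8.95 and 9.72, which did not pass (-0.49 ± 0.51 SE, adjusted p = 0.709). These are 3′ probe sets, and whether they lie inside the transduced sequences is not given in the sources used here, so they do not check delivery of the factors.

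Among 32 measured liver transcription factors, 12 fell and none rose, with a median difference of -0.70. Hhex, a homeobox factor needed for liver budding, showed the largest fall: 5.09 in 4a3, 5.49 in 4a3CK and 4.71 in 4a1CK, against 10.15, 10.06 and 10.03 in hepatocytes. No line came within 4 of the lowest hepatocyte array, and the difference was -4.98 ± 0.23 (SE, adjusted p = 2.15e-05). Nr1h4, which encodes the bile acid receptor FXR, read 3.66 to 4.09 over the lines and 7.35 to 7.59 over the hepatocytes, a difference of -3.64 ± 0.20 (SE, adjusted p = 5.14e-05). Onecut1 (-2.75 ± 0.20 SE, adjusted p = 0.00014), Nr5a2 (-2.60 ± 0.19 SE, adjusted p = 0.000166) and Foxa2 (-2.57 ± 0.30 SE, adjusted p = 0.00179), all regulators of early liver genes, fell as well. Foxa2 was highest in 4a1CK at 6.16, still below the lowest hepatocyte value of 7.94. Cebpa (-1.56), Prox1 (-2.32), Nfia (-1.91), Nfib (-2.24) and Onecut2 (-1.55) completed the group with Foxa1 and Foxa3; of the 12, Prox1 alone lost its call with 1 array left out (PH 2, 4a1CK or 4a3CK, adjusted p up to 0.0745). Cebpb, the C/EBP family member linked to the acute phase, was split between lines at 11.02 in 4a3, 6.79 in 4a3CK and 10.93 in 4a1CK, against 10.39 to 10.55 in hepatocytes, and did not pass (adjusted p = 0.743).

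Plasma carriers and hormones had the lowest median of the lists: 13 of 22 measured genes fell, none rose, and the median difference was -4.22. Ambp, whose product is cut into a small plasma carrier and a protease inhibitor, read 3.72 in 4a3, 3.64 in 4a3CK and 3.73 in 4a1CK. In hepatocytes it read 11.70, 11.81 and 11.13, and with a difference of -7.85 ± 0.23 (SE, adjusted p = 1.88e-06) it was the largest fall of all genes. All lines lay at the fibroblast level (3.86 and 3.69). Vtn, the adhesion protein vitronectin, read 3.58 to 3.79 over the lines and 10.08 to 10.38 over the hepatocytes (-6.54 ± 0.19 SE, adjusted p = 1.88e-06). Ttr, the thyroxine and retinol carrier, was 5.96 in 4a3, 4.76 in 4a3CK and 4.66 in 4a1CK against 11.20, 10.93 and 11.65, a difference of -6.14 ± 0.36 (SE, adjusted p = 6.02e-05). Igfbp1 (-5.89 ± 0.41 SE, adjusted p = 0.000134), an insulin-regulated binding protein, and Hamp (-5.50 ± 0.81 SE, adjusted p = 0.00531), the iron hormone hepcidin, fell as well and averaged 3.76 and 3.80 in the lines. Hamp varied widely among the hepatocyte arrays (7.48, 9.02 and 11.40), yet every one of them exceeded every line.

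Albumin separated the lines. Alb read 9.30 in 4a3, 3.80 in 4a3CK and 4.01 in 4a1CK, against 11.94, 11.87 and 11.90 in hepatocytes, so 4a3 lay below them while 4a3CK and 4a1CK were at the fibroblast level of 4.12 and 4.01. The difference over the 3 lines was -6.20 ± 1.25 (SE, adjusted p = 0.0206); the call was lost without PH 1, PH 2 or 4a1CK (adjusted p up to 0.0727). Afp, the fetal counterpart of albumin, followed the same order of values, 8.96 in 4a3, 2.86 in 4a3CK and 2.85 in 4a1CK against 10.21, 10.16 and 9.92, and did not pass (-5.21 ± 1.41 SE, adjusted p = 0.061); as the mean of all its probe sets it did, with a difference of -2.84 (adjusted p = 0.042). Hpx, the heme carrier hemopexin, read 8.56 in 4a3, 8.01 in 4a3CK and 4.92 in 4a1CK against 11.98, 12.17 and 12.23 (-4.96 ± 0.80 SE, adjusted p = 0.0082). Cp, the copper oxidase ceruloplasmin, was more even over the lines at 6.80 to 7.80 and fell by 4.90 (adjusted p = 0.00569).

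**Figure D2:**
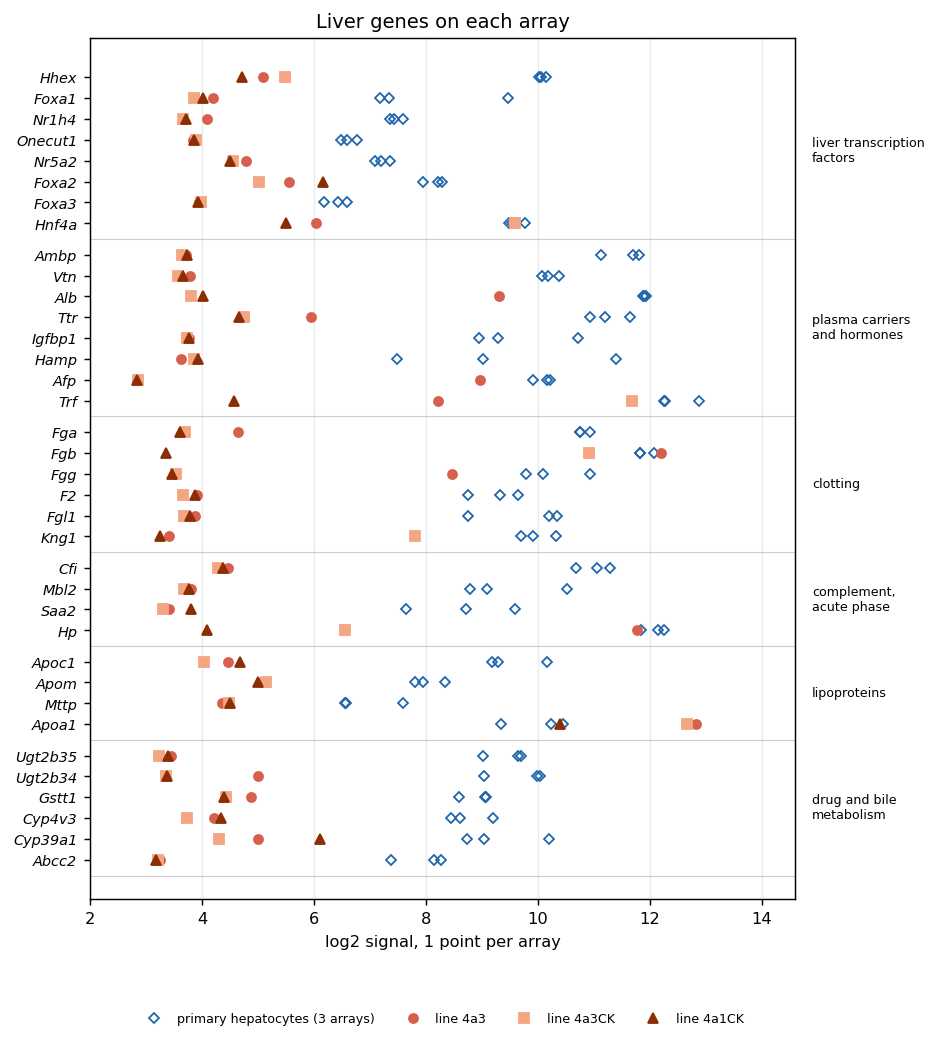
Log2 signal of 36 liver genes on the horizontal axis, 1 row per gene; open blue diamonds are the 3 primary hepatocyte arrays and filled symbols the 3 lines. For most genes the filled symbols cluster near 4 and the diamonds lie well to their right, while Alb, Afp, Fgb, Fgg, Kng1, Hp and Hnf4a have 1 or more lines far from the others and Apoa1 has no line below the hepatocyte range.

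Of 25 coagulation and fibrinolysis genes 15 fell and none rose, with a median of -1.95; the count of falls ran from 8 to 13 when 1 array was left out. The 3 fibrinogen chains, which assemble in the hepatocyte into 1 secreted protein, did not share 1 pattern over the lines. The alpha chain, Fga, read 4.64 in 4a3, 3.70 in 4a3CK and 3.60 in 4a1CK against 10.75, 10.75 and 10.93 in hepatocytes and fell in every line (-6.83 ± 0.29 SE, adjusted p = 9.88e-06). The beta chain, Fgb, read 12.21 in 4a3, 10.92 in 4a3CK and 3.36 in 4a1CK against 11.83, 11.83 and 12.08, so 4a3 lay above the hepatocytes, 4a3CK just under them and 4a1CK at the fibroblast level. The gamma chain, Fgg, read 8.47 in 4a3, 3.54 in 4a3CK and 3.46 in 4a1CK against 10.10, 9.79 and 10.92. Fgg passed over all arrays (-5.11 ± 1.18 SE, adjusted p = 0.0355) but in only 1 of the 8 fits that leave out an array, the one without 4a3. Prothrombin, F2, read 3.66 to 3.90 over the lines and 8.76 to 9.64 over hepatocytes (-5.43 ± 0.27 SE, adjusted p = 2.56e-05). Fgl1, a fibrinogen-like hepatokine (-5.99 ± 0.39 SE, adjusted p = 9.67e-05), and Proc, the anticoagulant protein C (-2.95 ± 0.26 SE, adjusted p = 0.000462), fell in all 3 lines. Kng1, the kininogen that releases bradykinin, was higher in 4a3CK than in the other lines (3.41 in 4a3, 7.81 in 4a3CK and 3.26 in 4a1CK, against 9.71, 9.91 and 10.32); its fall of 5.15 was called over all arrays (adjusted p = 0.0217) and not without PH 1, PH 2, 4a1CK or 4a3. 

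Complement and acute phase genes fell in part. Of 24 complement genes 7 fell and 1 rose (median -1.16), and of 19 acute phase genes 10 fell and none rose (median -4.02). Cfi, the protease that inactivates C3b, read 4.47 in 4a3, 4.29 in 4a3CK and 4.38 in 4a1CK against 11.30, 11.05 and 10.68, a difference of -6.63 ± 0.22 (SE, adjusted p = 3.11e-06). Mbl2, a lectin that starts the complement cascade (-5.73 ± 0.41 SE, adjusted p = 0.00014), and C4b (-3.98 ± 0.29 SE, adjusted p = 0.000167) fell without overlap. The rise was Cd55, the membrane protein that shields cells from complement, at 7.86 in 4a3, 8.81 in 4a3CK and 6.38 in 4a1CK against 3.99, 4.18 and 4.04 (3.62 ± 0.67 SE, adjusted p = 0.0148); it lost the call without PH 1, PH 2 or 4a3. Serum amyloid genes Saa1 (-4.55 ± 0.53 SE, adjusted p = 0.00187) and Saa2 (-5.14 ± 0.44 SE, adjusted p = 0.000345) fell, although PH 1 held less of both than PH 2 and PH 3 (7.64, 9.59 and 8.72 for Saa2). Crp, the pentraxin C-reactive protein, fell by 3.16 (adjusted p = 0.000619). Hp, the hemoglobin-binding haptoglobin, ran from the hepatocyte level in 4a3 to far below it in 4a1CK (11.76 in 4a3, 6.55 in 4a3CK and 4.10 in 4a1CK, against 11.85, 12.15 and 12.25), and did not pass (-4.61 ± 1.98 SE, adjusted p = 0.232). Among 11 serine protease inhibitors 4 fell and none rose (2 fell without PH 1), with Serping1, the C1 inhibitor, at 3.67 to 4.00 over the lines and 9.64 to 10.29 over hepatocytes (-6.16 ± 0.92 SE, adjusted p = 0.00594). For Serpina1a, the main antitrypsin marker, the lines were graded at 9.63 in 4a3, 7.38 in 4a3CK and 3.06 in 4a1CK, below all hepatocyte arrays (10.75 to 11.12), and did not pass (adjusted p = 0.0962).

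The upstream bases of Alb are printed because its promoter is a textbook target of hepatocyte factors. Sequences are from RefSeq on GRCm38.p6, which covers 13605 of the 17097 measured genes; the search ran over 250 bases before to 50 after each start, on both strands, and the printed window is the 120 bases before it. Capitals mark the C/EBP motif TTGCNNAA and the CCAAT box of NF-Y, read on either strand. The window is chr5:90460750-90460869 on the plus strand.
Alb: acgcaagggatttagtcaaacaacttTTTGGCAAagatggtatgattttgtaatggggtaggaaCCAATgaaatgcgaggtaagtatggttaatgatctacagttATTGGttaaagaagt
It holds the C/EBP motif at 1 place and CCAAT at 2. Of the 12 fallen plasma carrier and hormone genes with a promoter sequence, 3 held the C/EBP motif, as did 6 of all 18 measured members with one (33.3%). It was in 4 of the 10 fallen acute phase genes and in 10 of all 17 measured members with a promoter sequence (58.8%), in 11.9% of the 776 genes called lower with one and in 10.8% of all genes. The HNF4 letters CAAAGTCCA or CAAAGTTCA were in 1.29% of the lower genes and 1.04% of all, the FOXA letters TGTTTAC in 3.61% and 3.38%, and the TATA box TATAAA in 11.1% and 11.8%.

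Of 18 lipoprotein genes 5 fell, none rose, and the median was -0.77. Apoc1, which restrains lipoprotein lipase, read 4.46 in 4a3, 4.03 in 4a3CK and 4.68 in 4a1CK against 9.18, 9.29 and 10.17 (-5.15 ± 0.31 SE, adjusted p = 6.02e-05). Apom, a carrier of sphingosine-1-phosphate (-2.95 ± 0.21 SE, adjusted p = 0.000134), and Mttp, which loads lipid onto apolipoprotein B (-2.47 ± 0.29 SE, adjusted p = 0.00201), also fell. Apoa1, the main protein of HDL, stood apart from the pattern at 12.82 in 4a3, 12.66 in 4a3CK and 10.39 in 4a1CK. Hepatocytes read 10.45, 10.24 and 9.35 and fibroblasts 5.30 and 4.29, so every line lay above the lowest hepatocyte array and far above the fibroblasts; the difference from hepatocytes did not pass (1.95 ± 0.64 SE, adjusted p = 0.115). Apoe, a ligand of lipoprotein receptors, was 6.75 in 4a3, 4.88 in 4a3CK and 8.85 in 4a1CK against 10.60, 10.56 and 11.27, below in every line and not past the test (adjusted p = 0.0557).

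Some genes of drug metabolism fell, and most did not pass. Of 45 cytochrome P450 genes 7 fell and none rose (median -0.40), and of 43 conjugation enzymes 12 fell and 1 rose (median -0.45). The median signal of the P450 list was only 4.32 in PH 1, 4.29 in PH 2 and 5.34 in PH 3, against 4.1 and 4.0 in the fibroblasts. For many P450 genes a fall could hardly be seen, so a missing call does not mean that lines and hepatocytes were alike. The glucuronosyltransferase Ugt2b35 read 3.44 in 4a3, 3.22 in 4a3CK and 3.39 in 4a1CK against 9.69, 9.65 and 9.03, a difference of -6.11 ± 0.23 (SE, adjusted p = 5.7e-06). Its relatives Ugt2b34 (-5.78 ± 0.47 SE, adjusted p = 0.000279) and Ugt2b5 (-4.42 ± 0.31 SE, adjusted p = 0.000131) fell in the same way; the family is close in sequence, and probes may not tell all members apart. The glutathione transferases Gstt1 (-4.34 ± 0.67 SE, adjusted p = 0.00699) and Gstt2 (-3.87 ± 0.20 SE, adjusted p = 3.53e-05) fell too, while Gsto1, of the omega class, rose (1.61 ± 0.27 SE, adjusted p = 0.00919). Among P450 genes the falls were led by Cyp4v3, a fatty acid hydroxylase (-4.65 ± 0.36 SE, adjusted p = 0.000211), Cyp39a1, an oxysterol hydroxylase of bile acid synthesis (-4.19 ± 0.52 SE, adjusted p = 0.00246), and Cyp26a1, which breaks down retinoic acid (-3.03 ± 0.20 SE, adjusted p = 0.000111). Cyp3a11, a main drug-oxidising enzyme, read 4.73 to 4.92 over the lines and 4.83, 5.03 and 8.63 in PH 1, PH 2 and PH 3. For this gene PH 3 alone was high, and the lines lay near PH 1 and PH 2 (adjusted p = 0.475). Sult1d1 and Slc2a2, a sulfotransferase and the hepatocyte glucose transporter, showed the same split, at 4.18, 4.39 and 8.06 and 4.66, 4.78 and 7.68.

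Of 36 transporter genes 3 fell and 1 rose (median -0.35), and 5 fell without PH 3. Of 19 bile acid genes 4 fell and none rose (median -0.68). Over all genes 5.64% were called lower and 1.49% higher, and the transporter counts lie near those shares. The median signal in PH 1, PH 2 and PH 3 was 4.9, 5.0 and 6.2 for transporters and 4.9, 5.3 and 6.6 for bile acid genes. Such levels leave little room for a fall in many members. Abcc2, the canalicular export pump for conjugates, read 3.25 in 4a3, 3.21 in 4a3CK and 3.17 in 4a1CK against 8.28, 8.15 and 7.38 and fell by 4.72 (adjusted p = 5.14e-05). Abcc3, its basolateral counterpart, fell by 2.55 (adjusted p = 0.000602), and Slc16a12, a creatine transporter, by 4.46 (adjusted p = 8.69e-05). The rise was Abcb1a, an MDR1 gene, at 5.72 to 6.84 against 4.82 to 5.47 (1.28 ± 0.32 SE, adjusted p = 0.0484). It lost its call without PH 1, PH 2, 4a1CK, 4a3CK or either fibroblast array (adjusted p up to 0.162).

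In the urea cycle and ammonia list 3 of 12 genes fell and 1 rose. The falls, Cps1 (-1.96 ± 0.45 SE, adjusted p = 0.0356), Asl (-1.40 ± 0.32 SE, adjusted p = 0.0329) and Arg1 (-1.28 ± 0.27 SE, adjusted p = 0.023), are urea cycle enzymes; leaving out 1 array took the number of falls to between 0 and 3, and all 3 genes lost their calls without PH 1 or 4a3 (adjusted p up to 0.107). Oat, ornithine aminotransferase, rose (1.50 ± 0.27 SE, adjusted p = 0.0139) and lost its call without PH 1, PH 2 or 4a3. Of 36 amino acid breakdown genes 4 fell and none rose, led by Pcbd1, which recycles the cofactor of phenylalanine hydroxylase: it read 6.10 in 4a3, 5.73 in 4a3CK and 5.01 in 4a1CK against 9.58, 9.66 and 10.10 (-4.17 ± 0.31 SE, adjusted p = 0.000179). Cdo1, cysteine dioxygenase (-3.25 ± 0.55 SE, adjusted p = 0.0101), and Cbs, cystathionine beta-synthase (-1.76 ± 0.24 SE, adjusted p = 0.00374), fell as well. The median signal of the amino acid breakdown list was only 4.40 in PH 1, 4.40 in PH 2 and 5.54 in PH 3. For many of its members a fall could hardly be seen. In gluconeogenesis 1 of 16 genes fell, Fbp1, fructose-1,6-bisphosphatase (-2.57 ± 0.34 SE, adjusted p = 0.00342), and the list's median was -0.04. In fatty acid oxidation 2 of 27 fell, Acaa1b (-3.13 ± 0.37 SE, adjusted p = 0.00187) and Ehhadh (-1.50 ± 0.28 SE, adjusted p = 0.0149), both peroxisomal enzymes, with a median of 0.04; Ehhadh lost its call without 4a3. In cholesterol and fatty acid synthesis 2 of 30 fell, in the respiratory chain 1 of 51, and in the peroxisome 3 of 35, among them catalase. None of the genes in these 5 lists was called higher over all arrays, and 5.64% of all genes were called lower. Without PH 3, 5 peroxisome genes were called higher. Without 4a3CK 3 gluconeogenesis and 4 respiratory chain genes were called lower, and without 4a3 the peroxisome falls numbered 1.

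**Figure D3:**
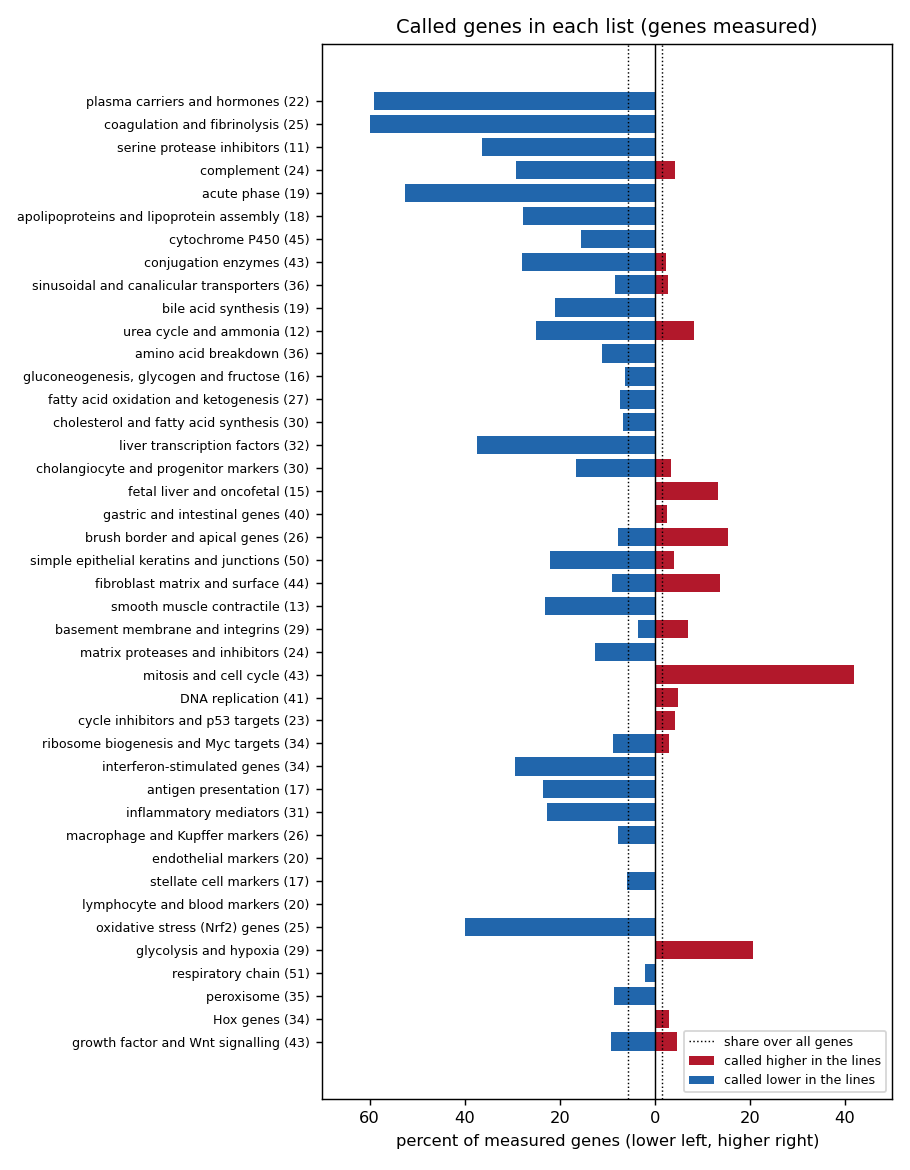
Percent of the measured genes in each of 42 gene lists that were called lower (blue, to the left) or higher (red, to the right) in the lines; the number measured is in brackets and dotted lines mark the shares over all genes, 5.64% lower and 1.49% higher. The longest blue bars belong to coagulation, plasma carriers and acute phase genes and the longest red bar to mitosis, where 18 of 43 genes were higher.

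Of 50 simple epithelial keratin and junction genes 11 fell and 2 rose (median -0.56); 7 fell without PH 1 and 15 without 4a3CK, and 1 rose without 4a1CK. Ocln, the tight junction protein occludin, read 3.69 in 4a3, 3.68 in 4a3CK and 3.80 in 4a1CK against 7.03, 7.12 and 7.40, a difference of -3.46 ± 0.19 (SE, adjusted p = 5.14e-05). Cldn2 (-3.57 ± 0.52 SE, adjusted p = 0.00531) and Cldn4 (-2.81 ± 0.35 SE, adjusted p = 0.00254), claudins of the same junction, and Dsc2, a desmosomal cadherin (-3.44 ± 0.48 SE, adjusted p = 0.00441), fell. Gja1, the gap junction protein connexin 43 typical of fibroblasts, rose: it read 9.99 in 4a3, 9.83 in 4a3CK and 9.29 in 4a1CK against 4.41, 4.77 and 5.25 (4.90 ± 0.29 SE, adjusted p = 6.02e-05), close to the fibroblast values of 10.52 and 10.80. Gjb2, a connexin of hepatocytes, fell (-2.28 ± 0.22 SE, adjusted p = 0.000716). Krt19, a keratin of bile ducts, rose at 10.05 in 4a3, 10.85 in 4a3CK and 10.70 in 4a1CK against 8.57, 8.29 and 6.32 (2.81 ± 0.58 SE, adjusted p = 0.0232); it lost the call without 4a1CK. The hepatocyte keratin Krt18 was 9.55 in 4a3, 8.35 in 4a3CK and 11.39 in 4a1CK against 11.76, 11.55 and 12.24 and did not pass (adjusted p = 0.191). Cdh1, E-cadherin, reached the hepatocyte range in 4a3CK alone (6.56 in 4a3, 9.47 in 4a3CK and 3.89 in 4a1CK, against 8.94, 9.24 and 9.63).

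Of 30 bile duct and progenitor markers 5 fell and 1 (Krt19) rose, with a median of -0.23. Bicc1, an RNA-binding protein of ducts, read 5.78 to 7.30 against 10.95 to 11.05 (-4.48 ± 0.41 SE, adjusted p = 0.000535), and Jag1, a Notch ligand, 3.34 to 3.53 against 6.19 to 7.31 (-3.32 ± 0.34 SE, adjusted p = 0.000911). Summed on the linear scale, the list's signal was 5417 to 6046 in the lines and 11367 to 13538 in the hepatocytes. Of the defining markers, Krt7 read 3.73 to 4.09 in the lines and 4.31 to 5.24 in hepatocytes, and Sox9 reached the hepatocyte range only in 4a3CK (5.39 in 4a3, 8.04 in 4a3CK and 4.33 in 4a1CK, against 7.58 to 7.96). The part of such cells in the differences was not tested.

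Among 40 gastric and intestinal genes 1 rose and none fell (median 0.21), and 3 rose without 4a1CK. Over all genes 1.49% were called higher and 5.64% lower. Among 26 brush border and apical genes 4 rose and 2 fell (median 0.04). The rises were 2 without PH 1, PH 2 or 4a3, and the falls were 4 without either fibroblast array and 1 without 4a3. Calml4, a calmodulin-like protein of the brush border, read 10.89 in 4a3, 8.03 in 4a3CK and 10.38 in 4a1CK against 3.64, 3.78 and 4.66, a rise of 5.74 ± 0.70 (SE, adjusted p = 0.0022). Eps8, an actin capping protein of microvilli, read 7.53 to 9.78 against 3.56 to 4.61 (4.71 ± 0.62 SE, adjusted p = 0.0033), with fibroblasts as high (7.58 and 9.20). Dpp4, an apical peptidase of hepatocytes and gut, was lower, at 3.06 to 3.16 in the lines against 4.54 to 5.83 (-1.97 ± 0.32 SE, adjusted p = 0.00846). Tspan8, a tetraspanin, rose (3.45 ± 0.81 SE, adjusted p = 0.0367). Leaving out any array other than 4a1CK ended its call. Gkn2, a gastrokine of stomach pits, read 4.63 in 4a3, 12.85 in 4a3CK and 4.52 in 4a1CK against 4.24, 4.33 and 5.00, high in 4a3CK alone, and did not pass (2.81 ± 1.91 SE, adjusted p = 0.498). Tff3, the intestinal trefoil factor, was high in 2 lines (10.64 in 4a3, 11.54 in 4a3CK and 4.66 in 4a1CK, against 4.64, 4.50 and 5.89; adjusted p = 0.181).

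Matrix genes differed from hepatocytes in both directions. The median signal of the fibroblast matrix and surface list was 4.6 in 4a3, 4.5 in 4a3CK and 5.3 in 4a1CK. It was 4.8, 4.6 and 4.7 in PH 1, PH 2 and PH 3, and 10.1 and 9.0 in MEF 1 and MEF 2. Of 44 fibroblast matrix and surface genes 6 rose and 4 fell (median 0.09), and after quantile normalization 6 rose and none fell. Without PH 1 or PH 2 these counts were 3 and 0, without 4a3 4 and 0, and without 4a3CK 8 and 4. Lamb1, a laminin chain of basement membranes, showed the largest rise among matrix genes: 10.65 in 4a3, 9.25 in 4a3CK and 9.27 in 4a1CK against 3.95, 4.00 and 5.83, a difference of 5.13 ± 0.56 (SE, adjusted p = 0.0014), with the lines near the fibroblasts (9.65 and 9.31). As the mean of all its probe sets the rise of Lamb1 was 2.95 (adjusted p = 0.00237). Fbln1, the matrix protein fibulin 1 (3.06 ± 0.48 SE, adjusted p = 0.00709), and Twist2, a mesenchymal transcription factor (adjusted p = 0.00752), were higher than in hepatocytes. Twist2 read 5.98 to 7.84 in the lines against 3.58 to 4.33. S100a4 (2.85 ± 0.48 SE, adjusted p = 0.0104), known as fibroblast-specific protein, was higher too, at 7.18 to 8.81 against 4.46 to 5.74. Twist1 (2.75 ± 0.50 SE, adjusted p = 0.0141) lost its call without PH 1 or PH 2. The defining fibroblast collagens were not among them. Col1a1 read 3.28 to 3.33 in the lines and 3.81 to 3.98 in hepatocytes against 10.00 and 7.92 in fibroblasts. Thy1 read 3.15 to 3.27, 3.16 to 3.81 and 10.67 and 9.08 in the same order, and Pdgfrb 3.83 to 3.92, 3.97 to 4.04 and 8.17 and 7.03. Dcn, the proteoglycan decorin, was lower in the lines than in hepatocytes: 3.77 in 4a3, 3.83 in 4a3CK and 3.76 in 4a1CK against 6.95, 6.91 and 5.55 (-2.68 ± 0.52 SE, adjusted p = 0.0174), with the call lost without PH 1, PH 2 or 4a3. Acta2, smooth muscle actin, was likewise lower and led 3 falls among 13 smooth muscle genes, of which none rose. It read 5.41 to 5.60 against 7.50 to 9.53 (-3.30 ± 0.48 SE, adjusted p = 0.00531). The falls in that list were 1 without PH 1 or 4a3, 2 without PH 2, and 1 with PH 1 and PH 2 averaged. Both are mesenchymal markers, and in a bulk sample fewer cells of a type and less RNA per cell cannot be told apart. Plat, tissue plasminogen activator, led 3 falls among 24 matrix proteases and inhibitors (-3.16 ± 0.29 SE, adjusted p = 0.000601), with no rise in that list over all arrays; without PH 3 it had 5 falls. In the basement membrane and integrin list 2 of 29 rose and 1 fell, the fall not being called without PH 1, PH 2, 4a3 or 4a3CK.

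Many mitotic genes rose in the lines. Of 43 measured 18 rose and none fell, with a median difference of 1.03. Cenpa, the histone variant of centromeres, read 9.15 in 4a3, 8.91 in 4a3CK and 9.19 in 4a1CK against 6.18, 6.26 and 7.49. The difference was 2.44 ± 0.35 (SE, adjusted p = 0.00461), and PH 3 was the hepatocyte array nearest the lines. Hmmr, a spindle assembly protein, read 9.26 in 4a3, 9.15 in 4a3CK and 9.44 in 4a1CK against 6.85, 6.90 and 7.92 (2.06 ± 0.31 SE, adjusted p = 0.00569). Bub1b, a spindle checkpoint kinase (1.75 ± 0.35 SE, adjusted p = 0.0193), Ccnb2, a mitotic cyclin (1.51 ± 0.34 SE, adjusted p = 0.0335), Ube2c, a ubiquitin enzyme of the anaphase complex (1.50 ± 0.30 SE, adjusted p = 0.0203), and Cdk1, the mitotic kinase (1.10 ± 0.24 SE, adjusted p = 0.0303), rose by less. The count depended on PH 3: it was 30 without that array and 28 after quantile normalization, but 3 with PH 1 and PH 2 averaged and 7 with the numbering runs as a block. No gene of this list was called lower in any of those fits. Leaving out PH 1 or PH 2 took the count to 3, 4a3 to 4 and 4a1CK to 5; each ended the calls of Bub1b, Ccnb2, Ube2c and Cdk1, while Cenpa and Hmmr kept theirs in every leave-out fit. Of 41 DNA replication genes 2 rose (Rrm2, 2.03 ± 0.47 SE, adjusted p = 0.0372, and Cdt1, 1.37 ± 0.34 SE, adjusted p = 0.0446), none fell, and the list's median was 0.22. Neither was called without PH 1, PH 2, 4a1CK or 4a3, and Cdt1 was not called as the mean of its probe sets (0.81, adjusted p = 0.141). The rises numbered 7 without PH 3; the falls numbered 4 without 4a3CK, and with the numbering runs as a block 2 fell, none rose and the median was -0.27.

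Promoters of mitotic genes are known for paired CCAAT boxes, bound by NF-Y, near a cell cycle homology region (CHR, TTTGAA). Upstream windows of 4 of the risen genes are printed, with any match of either motif, on either strand, in capitals; those of Cdk1 and Ube2c hold both motifs. They lie at chr10:69352913-69353032 on the minus strand for Cdk1, chr2:164769809-164769928 on the plus strand for Ube2c, chr9:70421555-70421674 on the minus strand for Ccnb2 and chr11:40733438-40733557 on the minus strand for Hmmr.
Cdk1: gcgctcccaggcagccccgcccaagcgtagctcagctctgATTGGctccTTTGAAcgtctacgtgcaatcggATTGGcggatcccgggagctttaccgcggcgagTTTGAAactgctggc
Ube2c: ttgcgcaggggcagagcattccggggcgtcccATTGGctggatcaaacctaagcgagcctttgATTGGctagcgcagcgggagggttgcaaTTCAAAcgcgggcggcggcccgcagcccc
Ccnb2: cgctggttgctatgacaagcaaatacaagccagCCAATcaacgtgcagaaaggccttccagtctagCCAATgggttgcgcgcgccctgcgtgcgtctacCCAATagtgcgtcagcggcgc
Hmmr: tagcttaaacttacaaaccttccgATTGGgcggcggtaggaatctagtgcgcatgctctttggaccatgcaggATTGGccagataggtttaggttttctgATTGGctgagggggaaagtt
Cdk1 has 2 CCAAT boxes and 2 CHR matches in its window, Ube2c 2 and 1, and Ccnb2 and Hmmr 3 CCAAT boxes each with no CHR letters in the printed bases. Of the 14 risen mitotic genes with a promoter sequence, 13 (92.9%) held CCAAT and 10 (71.4%) held TTTGAA. Of all 35 measured mitotic genes with one, 25 held each (71.4%), so TTTGAA was no more frequent among those called. Over all measured genes the shares were 42.3% and 15.6%, and over the 213 genes called higher 52.6% and 22.5%. The E2F letters TTTCCCGC or TTTGGCGC were in 4.69% of the genes called higher and 2.71% of all genes.

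Of 23 cycle inhibitors and p53 targets 1 rose, Cdkn2a, which encodes p16INK4A and p19ARF, brakes on the cell cycle. It read 9.10 in 4a3, 8.74 in 4a3CK and 8.76 in 4a1CK against 3.04, 3.16 and 3.57, a difference of 5.61 ± 0.74 (SE, adjusted p = 0.00319); the fibroblast arrays read 7.13 and 3.59. Without PH 3 the list had 8 rises. Mycn, a Myc family gene active in embryonic tissue, read 11.75 in 4a3, 12.11 in 4a3CK and 11.97 in 4a1CK against 4.73, 4.74 and 6.25 and 4.47 and 4.67 in fibroblasts, a difference of 6.70 ± 0.40 (SE, adjusted p = 6.02e-05). It was raised about equally in the line without transduced c-Myc. The gene has 3 probe sets, and the other two differed by -0.28 and 0.26, so the rise rests on 1 of them. In the ribosome biogenesis and Myc target list of 34 genes Mycn was the only one called higher, in the fit to all arrays, and 3 were called lower, or 0 after quantile normalization or without PH 1, PH 2, 4a1CK or 4a3. Oncofetal genes Igf2bp3, an RNA-binding protein (3.23 ± 0.33 SE, adjusted p = 0.000911), and Hmga2, a chromatin protein (2.03 ± 0.37 SE, adjusted p = 0.0143), rose among 15 fetal liver genes, with none called lower over all arrays and 2 without 4a3CK; Hmga2 lost its call without PH 2.

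Glycolysis and hypoxia genes rose in part: 6 of 29, none fell, median 1.32. Egln3, an oxygen-sensing hydroxylase induced by hypoxia, read 9.12 in 4a3, 9.97 in 4a3CK and 9.59 in 4a1CK against 4.63, 4.59 and 6.53 (4.31 ± 0.55 SE, adjusted p = 0.00291). Hk2, the hexokinase of growing cells that liver lacks, read 8.03 to 9.82 against 5.67 to 6.87 (2.77 ± 0.48 SE, adjusted p = 0.011); without PH 1 its adjusted p was 0.051. Pkm, the pyruvate kinase of non-hepatic tissue, was tightly grouped at 10.05 in 4a3, 10.05 in 4a3CK and 10.05 in 4a1CK against 8.43, 8.38 and 8.44 (1.63 ± 0.20 SE, adjusted p = 0.00211). Pgk1, a glycolytic kinase, rose by less (1.43 ± 0.32 SE, adjusted p = 0.0298). Pgk1 lost its call without PH 1, PH 2, 4a1CK or 4a3. The number of rises was 14 without PH 3, 2 without PH 1, 3 without PH 2 or 4a3, 10 after quantile normalization, 3 with PH 1 and PH 2 averaged and 2 with the numbering runs as a block. Pdk1 and Bnip3, both hypoxia-inducible, were higher in every line than in every hepatocyte array without passing: Pdk1 read 9.23 to 9.57 against 5.04, 5.21 and 8.16, with PH 3 far above PH 1 and PH 2.

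**Figure D4:**
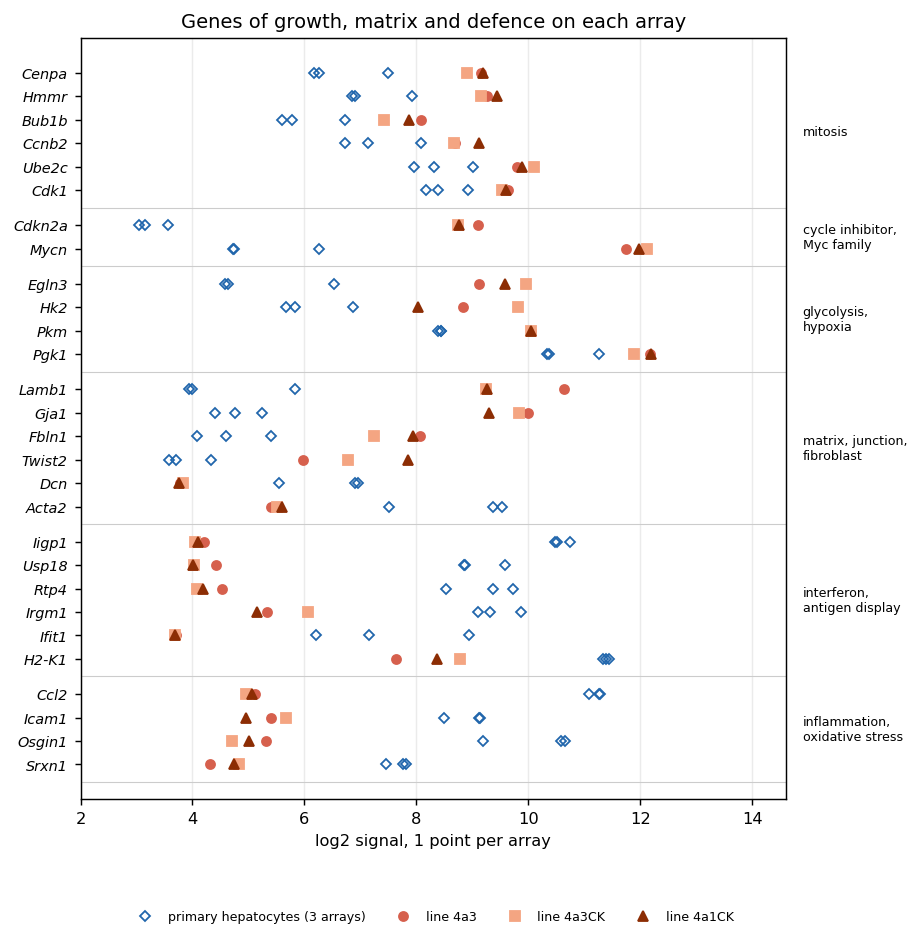
Log2 signal of 28 genes of growth, matrix and defence on the horizontal axis, 1 row per gene; open blue diamonds are the 3 primary hepatocyte arrays and filled symbols the 3 lines. Mitotic, glycolytic and most matrix genes have the lines to the right of the hepatocytes, and interferon, inflammatory and oxidative stress genes have them to the left.

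Some innate defence genes fell, and most of each list did not pass. Of 34 interferon-stimulated genes in the list 10 fell, none rose, and the median was -1.88. The number of falls ran from 6 to 17 when 1 array was left out. Outside the list Isg20, an interferon-stimulated gene by name, was higher in every line than in every hepatocyte array (3.96, adjusted p = 0.0146). Its calls with 1 array left out are not given here. Usp18, which dampens interferon receptor signalling, read 4.42 in 4a3, 4.03 in 4a3CK and 4.01 in 4a1CK against 8.87, 9.57 and 8.86 (-4.95 ± 0.40 SE, adjusted p = 0.000243). Rtp4, an antiviral chaperone (-4.94 ± 0.41 SE, adjusted p = 0.000316), and Irgm1, an immunity GTPase (-3.91 ± 0.45 SE, adjusted p = 0.0018), kept their calls in every leave-out fit. Iigp1, another GTPase of that family, had the deepest fall (-6.46 ± 1.15 SE, adjusted p = 0.0128) and was not called without PH 1 (adjusted p = 0.050). Ifit1, which binds viral RNA, was flat over the lines at 3.69 to 3.70 but varied in hepatocytes (7.15, 8.94 and 6.21) and lost its call without PH 1, PH 2, 4a1CK or 4a3. The upstream windows of Ifit1 (chr19:34640769-34640888 on the plus strand) and Oas1g (chr5:120887614-120887733 on the minus strand) show the interferon-stimulated response element in capitals, written as TTTC, any 2 bases and TTTC, on either strand. Oas1g fell (-2.62 ± 0.46 SE, adjusted p = 0.0118) and lost its call without PH 2.
Ifit1: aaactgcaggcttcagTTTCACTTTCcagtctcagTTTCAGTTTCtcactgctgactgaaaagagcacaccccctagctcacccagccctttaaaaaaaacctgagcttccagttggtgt
Oas1g: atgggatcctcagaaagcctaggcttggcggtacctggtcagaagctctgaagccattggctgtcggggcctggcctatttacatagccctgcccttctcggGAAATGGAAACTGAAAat
Each window holds 2 matches, which overlap in Oas1g. This motif was added after the values were seen. Of the 6 fallen interferon genes with a promoter sequence 5 held it, and so did 15 of all 24 measured members with one (62.5%), against 5.54% of all genes called lower and 3.59% of all measured genes.

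Of 17 antigen presentation genes 4 fell and none rose, among them H2-K1, a class I histocompatibility chain (7.64 in 4a3, 8.78 in 4a3CK and 8.37 in 4a1CK, against 11.39, 11.44 and 11.33; -3.12 ± 0.60 SE, adjusted p = 0.0175). The number was 0 with PH 1 and PH 2 averaged or without PH 1, PH 2 or 4a3. Of 31 inflammatory mediators 7 fell and none rose, with 4 to 11 falls when 1 array was left out. Ccl2, the monocyte attractant, read 5.12 in 4a3, 4.96 in 4a3CK and 5.06 in 4a1CK against 11.09, 11.26 and 11.28 (-6.16 ± 0.38 SE, adjusted p = 7.73e-05), although fibroblasts were high (11.62 and 9.91). Icam1, a leukocyte adhesion molecule (-3.58 ± 0.34 SE, adjusted p = 0.0007), and Tnfaip3, an inhibitor of NF-kappa B (-2.91 ± 0.32 SE, adjusted p = 0.0014), fell too. Of 25 oxidative stress genes, targets of NRF2, 10 fell and none rose (median -0.73). Osgin1 read 5.32 in 4a3, 4.70 in 4a3CK and 5.01 in 4a1CK against 10.65, 10.59 and 9.18 (-5.13 ± 0.39 SE, adjusted p = 0.000193), and Srxn1, sulfiredoxin, 4.32 to 4.84 against 7.46 to 7.82 (-3.05 ± 0.34 SE, adjusted p = 0.00153). Gsr, glutathione reductase (-2.33 ± 0.37 SE, adjusted p = 0.00799), and Hmox1, heme oxygenase (-2.09 ± 0.41 SE, adjusted p = 0.0177), fell, as did Nfe2l2, which encodes NRF2 itself (-1.56 ± 0.38 SE, adjusted p = 0.0425). Hmox1 lost its call without 4a1CK, and Nfe2l2 in every leave-out fit but the one without 4a3CK. The list's falls numbered 5 without 4a3. Gclc, the catalytic subunit of glutathione synthesis, read 11.47 in 4a3, 10.47 in 4a3CK and 11.06 in 4a1CK against 11.25, 11.03 and 11.18 and did not pass (-0.15 ± 0.37 SE, adjusted p = 0.904).

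Calls among markers of blood-borne and sinusoidal cells are to be read beside the shares over all genes, 5.64% lower and 1.49% higher. Of 26 macrophage and Kupffer genes 2 fell and none rose, Mpeg1 (-2.16 ± 0.24 SE, adjusted p = 0.00166) and Lyz2 (-1.22 ± 0.28 SE, adjusted p = 0.0351), the second not called without PH 1 or any 1 line. Of the list, 15 of the 26 genes were under the dim threshold of 4.09 on all lines and 6 on all hepatocyte arrays. The list's summed linear signal was 615 to 986 in the lines and 1323 to 1778 in the hepatocytes. The Kupffer marker Clec4f read 4.27 to 4.44 in the lines and 3.69 to 4.98 in hepatocytes, and Marco 3.37 to 3.56 and 3.29 to 4.29. Of 20 endothelial and 20 lymphocyte and blood genes none was called in either direction by limma, in this or any leave-out fit; over all genes 3536 had an unadjusted p under 0.05. Summed signals were 529 to 636 and 493 to 904 for endothelial genes, and 420 to 445 and 376 to 638 for lymphocyte and blood genes, lines first. Of 17 stellate cell genes 1, Dcn, fell, and not without PH 1, PH 2 or 4a3 (summed signal 329 to 493 in the lines, 490 to 558 in hepatocytes). The part of these cells in the defence genes above was not tested.

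Some genes set the lines apart from hepatocytes and fibroblasts alike. In 12 genes every line exceeded every hepatocyte and fibroblast array by at least 2. Besides Mycn, Calml4 and Egln3 these included Rgs2, a brake on G protein signalling (11.02 in 4a3, 11.13 in 4a3CK and 9.39 in 4a1CK, against 3.53, 3.50 and 5.83; 6.23 ± 0.72 SE, adjusted p = 0.00185), and Rab27b, a GTPase of secretory vesicles (5.01 ± 0.47 SE, adjusted p = 0.000609). Anxa8, an annexin of epithelia with the largest rise of all genes (11.36 in 4a3, 11.46 in 4a3CK and 10.55 in 4a1CK, against 4.75, 4.52 and 3.90; 6.73 ± 0.54 SE, adjusted p = 0.000246), was among them, as were Podxl, an apical sialomucin (3.93 ± 0.51 SE, adjusted p = 0.00293), and Myzap (4.17 ± 0.50 SE, adjusted p = 0.00202). For Anxa8 the fibroblasts read 6.33 and 8.55, so it passed the margin of 2 only narrowly (2.001). In 33 genes every line was at least 2 below every array of both other groups. The widest margins were those of Ccl2, Usp18, Gm9706, a predicted gene (-4.80 ± 0.49 SE, adjusted p = 0.000911), and Rtp4. Others were Flna, the actin cross-linker filamin A (5.32 to 5.86 in the lines, 8.72 to 9.76 in hepatocytes; -3.79 ± 0.30 SE, adjusted p = 0.000225), Cryab, a small heat shock protein (-3.87 ± 0.35 SE, adjusted p = 0.000535), Igfbp3, a carrier of insulin-like growth factors (-4.42 ± 0.50 SE, adjusted p = 0.00166), and Thbd, the thrombin receptor thrombomodulin (-3.83 ± 0.22 SE, adjusted p = 5.92e-05). Growth factor genes fell and rose: Egfr, the EGF receptor, read 5.90 to 7.53 against 10.00 to 10.05 (-3.45 ± 0.40 SE, adjusted p = 0.00174), Tgfa, one of its ligands, fell (-2.44 ± 0.39 SE, adjusted p = 0.0084), and Spry2, a feedback inhibitor of the pathway, rose (2.25 ± 0.33 SE, adjusted p = 0.0054). Lines and hepatocytes were kept in the same medium, which contains EGF, but the time the hepatocytes spent in it is not given. A part of EGF in these differences was not tested. As means of all their probe sets Tgfa (-0.78, adjusted p = 0.163) and Spry2 (1.09, adjusted p = 0.0525) did not pass. In that list of 43 genes 2 rose and 4 fell, against 1.49% and 5.64% of all genes. The rises were 1 without PH 1, PH 2 or 4a3, and 5 without 4a3CK.

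Among the other large rises were Gsn, the actin-severing gelsolin (4.81 ± 0.83 SE, adjusted p = 0.011), Fhl1, a LIM protein of muscle (4.54 ± 0.38 SE, adjusted p = 0.000327), and Cav1, which shapes caveolae (4.14 ± 0.58 SE, adjusted p = 0.00449). As means of all their probe sets Gsn rose by 2.86 and Fhl1 by 2.375. Nr2f1, a nuclear receptor of embryonic patterning (3.82 ± 0.50 SE, adjusted p = 0.00316), and Dock11, a guanine nucleotide exchange factor (3.75 ± 0.36 SE, adjusted p = 0.000692), rose in every line. Among the other large falls were Tm4sf4, a tetraspanin-like membrane protein of liver and gut (-6.21 ± 0.19 SE, adjusted p = 1.88e-06), Wfdc2, a secreted epithelial protein (-5.18 ± 0.20 SE, adjusted p = 5.7e-06), and Akr1c12, an aldo-keto reductase (-5.16 ± 0.49 SE, adjusted p = 0.000673). Sprr1a, a cornified envelope protein, was high in the hepatocytes (11.75, 11.64 and 10.49) and lower in the lines (4.33 in 4a3, 6.76 in 4a3CK and 4.57 in 4a1CK; -6.08 ± 0.63 SE, adjusted p = 0.00099). Of 34 Hox genes, Hoxc8 alone rose and none fell, against 1.49% higher and 5.64% lower over all genes. Hoxc8 read 5.37 in 4a3, 8.86 in 4a3CK and 7.61 in 4a1CK against 3.48 to 4.50 and lost its call without PH 1, PH 2 or 4a1CK.

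The lines were compared singly with the hepatocytes, without a test, since each is 1 array. In 4a3 151 genes lay at least 2 above the highest hepatocyte array and 367 at least 2 below the lowest; in 4a3CK 187 and 323, and in 4a1CK 146 and 333. All 3 lines were that far above for 39 genes and that far below for 180. To see which hepatocyte genes a line had reached, genes were taken on which all hepatocyte arrays exceeded both fibroblast arrays by at least 3. There were 126, chosen on the hepatocyte and fibroblast arrays, so their fall in the lines is a description. Line 4a3 was within 1 of the hepatocyte range or above it on 26 of them, 4a3CK on 29 and 4a1CK on 20. All 3 lines were on 8, and none was on 83. On 48 of the 126 all 3 lines were within 1 of the fibroblasts. The 8 shared genes were Apoa1, Ephx2, Rhpn2, Gclc, Dnajc22, Selenop, Selenbp1 and Selenbp2, named after their values were seen. Conversely, 105 genes had both fibroblast arrays at least 3 above all hepatocyte arrays. All 3 lines had come within 1 of the hepatocyte range or below it on 53 of these, among them Sparc and Wnt5a, and none had on 17.

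Some of these genes were reached by 1 line alone. In 4a3 alone Afp, Rbp4, Sult1a1 and Vnn1 came within 1 of the hepatocyte range. For 4a3CK alone there were 10 such genes, among them Trf, Hnf4a, Cdh1 and Lsr, and for 4a1CK alone 5, among them Krt18, Dsp and Slc40a1. Trf, the iron carrier transferrin, read 8.21 in 4a3, 11.68 in 4a3CK and 4.58 in 4a1CK against 12.25, 12.27 and 12.88, highest in 4a3CK and at the fibroblast level in 4a1CK. Aldh1a1, the retinal dehydrogenase, read 3.77 in 4a3, 9.26 in 4a3CK and 3.58 in 4a1CK against 11.43, 11.38 and 11.92, nearest to the hepatocytes in 4a3CK; it was called over all arrays (-6.04 ± 1.30 SE, adjusted p = 0.0274) but not without PH 1, PH 2, PH 3, 4a1CK or 4a3. Slc40a1, the iron exporter ferroportin, read 4.79 in 4a3, 4.28 in 4a3CK and 8.66 in 4a1CK against 9.93, 9.57 and 9.32 (adjusted p = 0.0569). Dsp, which anchors desmosomes, read 6.75 in 4a3, 7.59 in 4a3CK and 9.78 in 4a1CK against 10.36, 10.25 and 9.79 (adjusted p = 0.0981). At the other extreme, Igfbp1, Ugt2b5, Ifit1 and Pzp, a protease-binding plasma protein (-4.59 ± 0.32 SE, adjusted p = 0.000133), were among the 10 called falls with the narrowest range over the lines, from 0.01 for Ifit1 to 0.04 for Igfbp1. In the lines Ifit1 (3.69 to 3.70) and Igfbp1 were under the dim threshold of 4.09, where a narrow range says little about the lines. Pkm, Kif20a, Top2a and Cdk1 were among the 10 narrowest rises, although all but Pkm lost their calls without PH 1, PH 2, 4a1CK or 4a3. Ifit1 lost its call in the same leave-out fits. The differences between lines were not tested, because no line was replicated, and the factors given and the line itself cannot be told apart.

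**Figure D5:**
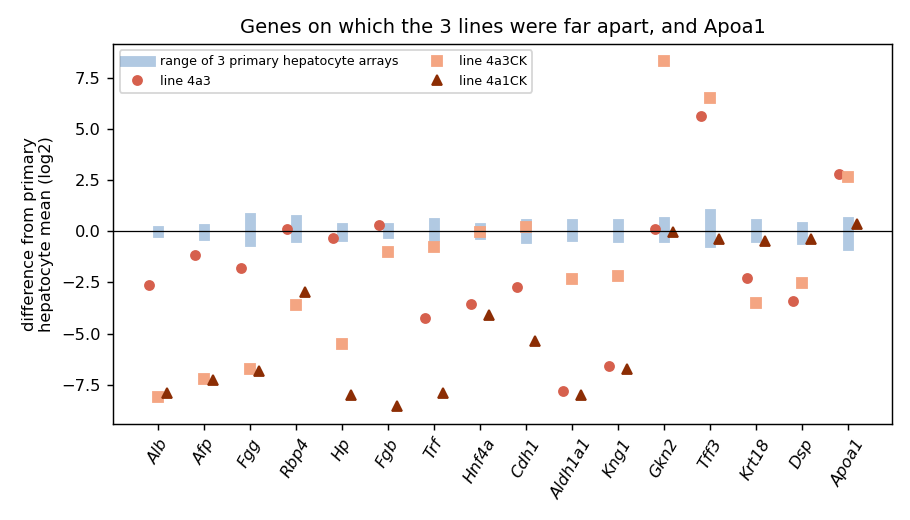
Difference of each line from the mean of the 3 primary hepatocyte arrays (log2, vertical axis) for 16 genes chosen after their values were seen; the blue bar spans the 3 hepatocyte arrays. Alb, Afp, Fgg and Hp lie nearest the bar in 4a3, Trf, Hnf4a, Cdh1, Aldh1a1 and Kng1 in 4a3CK, and Krt18 and Dsp in 4a1CK, whereas Gkn2 is far above it in 4a3CK alone.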

How the data were processed

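RNA of 3 induced hepatocyte lines, 3 primary hepatocyte samples and 2 fibroblast samples was measured on Affymetrix 3′ expression arrays. Each probe set has a log2 signal in the deposited table; RMA and Partek are named in the submitters' processing notes, without versions. Of 45141 probe sets, 28898 had 1 gene symbol in the platform annotation, 551 several, 15588 none and 104 were controls. Per gene, the brightest probe set on average over all arrays was kept, which left 17097 genes; 7180 had several. Of 608 called genes with other probe sets, all the others moved at least 1 the same way for 164 and none did for 319.

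Groups were compared with limma 3.58.1 (lmFit and eBayes, R 4.3.3) on 3 groups and 8 arrays, and p-values were adjusted by Benjamini-Hochberg over all genes. A gene was called at an adjusted p under 0.05 and a difference of at least 1 (log2). Errors are standard errors of that fit, with 3 lines and 3 hepatocyte arrays. The procedure was tested on simulated data: with 50 genes changed at each size it recovered 52% at a difference of 1.5, 72% at 2, 88% at 3 and 92% at 4, with 7 false calls. The simulated arrays had independent noise, without the shift of PH 3, the closeness of PH 1 and PH 2 or the numbering runs. The rates of recovery and of false calls therefore need not hold for the real arrays. Signal over background, not read depth, and the number of arrays limit the precision.

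The 43 gene lists and the genes compared were chosen with earlier results of these data known. The 43 lists hold 1308 genes, of which 1146 were measured; the other genes were not analysed here. Named genes were drawn from the 25 largest rises and falls called with no overlap, the transduced factors and those with the widest and narrowest range over the lines. In each list they were drawn from the members with the largest and smallest differences and those called against its direction. Not every gene these rules cover is named, and clone names are not given. The result of 1 motif search is not reported here. Further genes were named after their values were seen. The alternatives were the scaling, probe set choice, dim genes (no value above 4.09, the 40th percentile), the variance model, stricter thresholds, the numbering run as a block, PH 1 and PH 2 averaged, and leaving out each array. Tables were handled with Python 3.11.15 and pandas 2.3.3.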

Additional observations from a re-analysis of the deposited data

How the results depend on the processing

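No paired analysis was possible because the lines carry no replicate number that the hepatocyte arrays share. The 1219 calls became 588 with PH 1 and PH 2 averaged, 2432 against PH 3 only, 476 at an adjusted p under 0.01 and 458 at a difference of at least 2; leaving out 1 array gave 576 to 1806. The 254 higher calls became 81 (PH 1 and PH 2 averaged), 108 (numbering run as a block), 641 (array medians subtracted), 401 (each line its own group), 82 (PH 3 only), 720 and 607 (quantile normalization leaving out PH 3 and with it), 70 (adjusted p under 0.01) and 119 (difference of at least 2), and 81 to 884 with 1 array left out. The 965 lower calls became 507, 2350, 406 and 339 with PH 1 and PH 2 averaged, PH 3 only, the stricter p and the stricter difference, and 485 to 1112 with 1 array left out. Genes with all lines above all hepatocyte arrays, 861 as deposited, were 4826 with array medians subtracted, 3830 after quantile normalization and 7805 with PH 3 left out; those with all lines below, 3642, were 2334, 3216 and 3752 (these alternatives were chosen after seeing the data). The median difference over all genes moved from -0.09 to 0.11 with array medians subtracted, 0.03 after quantile normalization, -0.37 with the block, -0.57 against PH 3 only and 0.15 without PH 3. Of 191 called genes covered by the naming rules, 178 kept their call after quantile normalization, 141 with the block and 122 with PH 1 and PH 2 averaged, and none changed direction in those fits. With each gene read as the mean of all its probe sets, 50 of the 191 had a difference smaller by over 1.5-fold and 2 larger, 21 lost their call and none reversed. Read in that way, Rtp4 differed by -2.56, Srxn1 by -1.29, Plat by -1.49 and Acta2 by -1.81, and Top2a was not called (0.69, adjusted p = 0.168). With probe sets that bind several transcripts removed, Spag5 turned to -0.28 and Uqcrq to 0.22, each then read on another probe set. The number of arrays limits all of this, since each line is 1 array.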

Other observations

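PH 3 stood apart from the other hepatocyte arrays. It lay at least 2 above both PH 1 and PH 2 on 183 genes and at least 2 below both on 14. The largest gaps were those of Trim30d (3.56, 3.50 and 8.94 in PH 1, PH 2 and PH 3), Fam107a (3.21, 3.23 and 8.39) and Cyp1a1. Among the higher genes, 4 of hepatocyte function are given here, picked after their values were seen. Cyp1a1 read 4.22, 3.99 and 9.13 in PH 1, PH 2 and PH 3, Cyp1a2 3.82, 3.82 and 6.79, Cyp3a11 4.83, 5.03 and 8.63, and Slc2a2 4.66, 4.78 and 7.68, while the lines read 4.00 to 5.12, 3.57 to 3.64, 4.73 to 4.92 and 4.14 to 4.32 on the same genes. Genes on which PH 3 was lowest, likewise picked after their values were seen, included Krt19 (8.57, 8.29 and 6.32) and Acta2 (9.53, 9.37 and 7.50). Lgals3, a galectin of macrophages, was another (9.99, 10.02 and 8.05). Genes of hepatocyte function were also among them: Mup3 (7.22, 7.13 and 4.21), Gsta2 (10.58, 10.27 and 7.54) and Fgl1 (10.20, 10.34 and 8.75). The labels give no difference between these hepatocyte samples, and why the arrays differ was not tested.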
